A study of Mus musculus with 6 samples.

Results

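Red pulp macrophages of the spleen and the genes they use to recycle iron were examined through 10 genes: Spic, Adgre1, Vcam1, Csf1r, Cd163, Hmox1, Slc40a1, Cd5l, Mertk and Axl. The genes were chosen by name, with earlier results of these data known. All 10, of 47729 genes counted, were measured well enough to enter the 15330 genes tested.

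RNA-seq had been performed on whole spleens of 3 NOD.B10 and 3 BL/10 females, deposited as biological replicates, to define how the strains differ in gene expression. NOD.B10 (NOD.B10Sn-H2b/J) is a congenic strain on the NOD background that develops a disease resembling primary Sjögren's syndrome (pSS), and its females had clinical disease. BL/10 (C57BL10/SnJ) is the healthy control, and it shares the H2b haplotype with NOD.B10 but differs from it in the rest of the genome. The labels name no treatment, transgene or deletion in either strain. The sample labels give an age of 26 weeks for the 3 NOD.B10 mice and BL/10 replicate 1 and of 36 weeks for BL/10 replicates 2 and 3. The methods, in contrast, describe the controls as matched in age, and which is right is not known. If the labelled ages hold, a strain difference that rests on those libraries cannot be told apart from a difference in age. The labels also disagree with each other on strain. The library descriptions and the columns of the count table name the strain used here, while the titles and strain fields name the opposite strain for all 6 libraries. Every direction given here would be reversed under the titles.

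Library totals ranged from 15662712 to 18298451 counts, and 3 counts, the lowest level read as a measurement, corresponded to 0.164 to 0.192 CPM. Expression levels are given as normalised read counts in CPM, which are counts scaled to the size of the library and corrected for its composition. In the edgeR quasi-likelihood fit over all tested genes, 17.3% passed an adjusted p of 0.05 after Benjamini-Hochberg adjustment, 9.11% higher in NOD.B10 and 8.22% lower. The libraries of the strains did not overlap for 38.0% of tested genes. A list of 10 pancreas acinar markers, mostly genes of digestive enzymes, made up 1.17%, 0.170% and 0.0103% of the counts in BL/10 replicates 1, 2 and 3. In NOD.B10 it made up at most 0.00312%. Other pancreas genes were not counted in these shares.

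Red pulp macrophages remove aged red blood cells from the circulation. They take up hemoglobin and heme, release iron from heme with heme oxygenase, store it in ferritin and return it to the plasma through the exporter ferroportin. Their development depends on the transcription factor Spi-C, which heme induces when it relieves repression by Bach1, and they also clear dying cells through phosphatidylserine receptors such as the TAM kinases. Iron regulatory proteins bind a hairpin in the 5′ UTR of ferroportin and ferritin mRNAs and hold back their translation when iron is low.

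That hairpin, the iron-responsive element, is shown because it links one member, Slc40a1, to the ferritin genes that were measured beside it. A search of the 5′ UTRs of GENCODE M21 transcripts (GRCm38) for a C, a stem of 5 bases, the loop CAGTGN and 5 bases that pair with the stem, G-T pairs allowed, found the element in 27 of 20730 genes (0.13%). Among the genes listed here it was found in Slc40a1, Fth1, Ftl1 and Alas2, and the Alas2 match crosses a splice junction. The 3 others lie in an exon at chr1:45925465-45925493 on the minus strand (Slc40a1), chr19:9982732-9982760 on the plus strand (Fth1) and chr7:45459779-45459807 on the minus strand (Ftl1). They are written 5′ to 3′ as DNA, with the loop in capitals.
Slc40a1: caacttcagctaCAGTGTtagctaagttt
Fth1: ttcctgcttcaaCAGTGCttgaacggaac
Ftl1: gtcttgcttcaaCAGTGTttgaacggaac

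Promoter sequences from RefSeq (GRCm38.p6) were matched for 5 of the 10 members, namely Spic, Cd163, Cd5l, Mertk and Axl. The 250 bases before the RefSeq start of Spic, which encodes the factor that defines the lineage, and of Cd163 and Cd5l, the members that differed most between the strains in opposite directions, are shown. They lie at chr10:88683024-88683273 (minus strand), chr6:124304401-124304650 (plus strand) and chr3:87357631-87357880 (plus strand). The RefSeq start of Spic used here lies inside the longer span that GENCODE gives the gene, which has 1 transcript beginning farther upstream. Both strands were searched for an ETS-family motif (AGGAAGT), an antioxidant response element (TGACNNNGC) and an E-box (CACGTG), which occur in 7.686%, 10.16% and 6.021% of 32851 promoters of the same length. The single match in the 5 promoters was the ETS motif in Spic, on the reverse strand and beginning 48 bases before the RefSeq start, shown in capitals.
Spic: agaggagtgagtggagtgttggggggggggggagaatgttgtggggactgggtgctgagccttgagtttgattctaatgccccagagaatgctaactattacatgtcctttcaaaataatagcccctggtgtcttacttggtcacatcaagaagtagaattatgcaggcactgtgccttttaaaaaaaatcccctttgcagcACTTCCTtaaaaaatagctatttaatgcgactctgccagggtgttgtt
Cd163: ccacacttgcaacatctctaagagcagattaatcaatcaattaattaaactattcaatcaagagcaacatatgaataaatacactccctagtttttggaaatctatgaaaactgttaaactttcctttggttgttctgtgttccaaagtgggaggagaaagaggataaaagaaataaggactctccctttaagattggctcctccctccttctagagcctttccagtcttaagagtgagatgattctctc
Cd5l: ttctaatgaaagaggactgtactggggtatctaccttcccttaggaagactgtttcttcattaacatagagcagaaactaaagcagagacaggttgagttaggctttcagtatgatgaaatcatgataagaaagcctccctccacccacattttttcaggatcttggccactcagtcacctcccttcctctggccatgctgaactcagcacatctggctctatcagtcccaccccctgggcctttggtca

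The 10 genes did not move together. Cd163 and Vcam1 were higher in NOD.B10 spleens, Cd5l and Slc40a1 were lower, and the other 6 did not pass the test. In the edgeR fit 4 of 10 members were therefore called, beside 17.3% of all tested genes, with 2 higher and 2 lower. Of the 10, 6 had an unadjusted p under 0.05 in the same fit, beside 34.2% of all tested genes. Their median log2 fold change was -0.05, against 0.00060 over all tested genes. The libraries of the strains did not overlap for 5 members, the 4 called genes and Adgre1, beside 38.0% of all tested genes. DESeq2 called 6 members, adding Spic and Adgre1, beside 17.0% of the genes it tested. In a fit on the 26-week libraries alone, which leaves 1 BL/10 library and assumes that it varies like the others, Cd163 and Cd5l were called and the 8 others were not, beside 6.19% of all genes tested there. The BL/10 library of that fit, BL/10 replicate 1, also had the highest share of pancreas enzyme counts. Age and pancreas content therefore cannot be told apart as sources of a change seen in that fit. With the replicate number as a block 3 members were called, beside 18.8% of genes.

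Leaving out single libraries moved the share of all genes called more than the count of members. Without NOD.B10 replicate 1, 2 or 3 in turn, 3 members were called each time, beside 8.12%, 12.9% and 8.95% of all genes. Without BL/10 replicate 1 it was 4 members beside 26.3%, and without BL/10 replicate 2 or 3 it was 3 members beside 10.1% and 11.2%. Vcam1 was not called in any of these fits, and Cd163 and Cd5l were called in each. Slc40a1 was called in all but the fit without NOD.B10 replicate 3, in which Spic was called instead, and Adgre1 was added without BL/10 replicate 1.

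**Figure D1:**
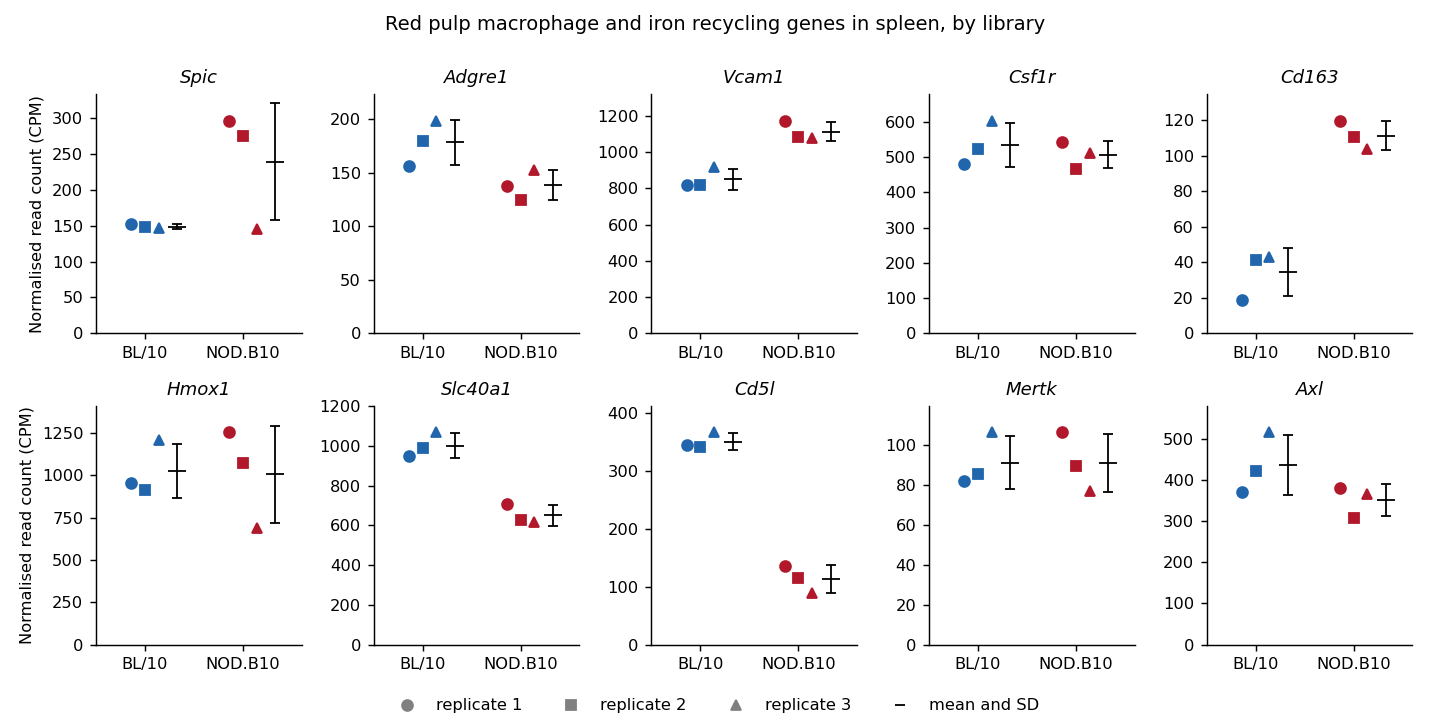
Normalised read count (CPM, vertical axis from 0) of each of the 10 genes in the 3 BL/10 and 3 NOD.B10 libraries, with the shape of a point giving the replicate and the bar the mean and SD. Cd163 and Vcam1 are higher in every NOD.B10 library, Cd5l, Slc40a1 and Adgre1 are lower in every NOD.B10 library, and the strains overlap for the 5 other genes.

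Lineage genes were examined first. Spic (ENSMUSG00000004359, chromosome 10 from 88674772 to 88685015, minus strand) encodes the ETS-family factor Spi-C that red pulp macrophages require. Its level was 296, 275 and 146 CPM in NOD.B10 replicates 1, 2 and 3, and 152, 148 and 146 CPM in BL/10 replicates 1, 2 and 3. NOD.B10 replicates 1 and 2 stood far above the tight BL/10 libraries, and NOD.B10 replicate 3 lay just below all of them, so that the strains overlapped. The means were 239 ± 81.5 CPM in NOD.B10 and 149 ± 2.91 CPM in BL/10 (SD, n = 3 each). The log2 fold change was 0.68 (SE 0.24, 95% interval 0.13 to 1.24), with an adjusted p of 0.0886 in edgeR and of 0.0355 in DESeq2. NOD.B10 replicate 3 decided the call, because without it the log2 fold change was 0.94 and the adjusted p was 0.00403 in edgeR.

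Adgre1 (ENSMUSG00000004730, chromosome 17 from 57358686 to 57483529, plus strand) encodes F4/80, the surface antigen used to recognise red pulp macrophages. It was measured at 138, 125 and 152 CPM in NOD.B10 and at 156, 179.9 and 198 CPM in BL/10. Each NOD.B10 library lay below each BL/10 library, with a gap of only a few CPM between NOD.B10 replicate 3 and BL/10 replicate 1. The log2 fold change was -0.37 (SE 0.12, 95% interval -0.65 to -0.08) and did not pass the edgeR test (adjusted p = 0.0777). It passed in DESeq2 (adjusted p = 0.0431), in limma-voom (adjusted p = 0.0386) and in edgeR without BL/10 replicate 1 (log2 fold change -0.46, adjusted p = 0.0200).

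Csf1r (ENSMUSG00000024621, chromosome 18 from 61105572 to 61132149, plus strand) encodes the receptor for the growth factors CSF1 and IL-34 on which macrophages depend. It had 544, 466 and 512 CPM in NOD.B10 and 480.1, 522 and 603 CPM in BL/10. The strains overlapped, and the log2 fold change was -0.08 (SE 0.12, 95% interval -0.37 to 0.21, edgeR adjusted p = 0.697). Counting did not use strand, and 871 of the 4885 exonic bases of Csf1r (17.83%) are shared with exons of Hmgxb3 on the opposite strand, which makes its level uncertain. The ligands did not differ by the test either, with a log2 fold change of 0.24 (SE 0.17) for Csf1 and 0.35 (SE 0.23) for Il34 (edgeR adjusted p = 0.353 and 0.320).

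Vcam1 (ENSMUSG00000027962, chromosome 3 from 116109949 to 116129688, minus strand) encodes an adhesion molecule that red pulp macrophages carry, as do stromal cells and activated endothelium. Its level was 1173, 1087 and 1077 CPM in NOD.B10 and 819.9, 817 and 919 CPM in BL/10. Every NOD.B10 library was higher than every BL/10 library. The mean was 1112 ± 53.0 CPM in NOD.B10 and 852 ± 58.0 CPM in BL/10 (SD, n = 3 each), 1.31-fold higher in NOD.B10 (log2 fold change 0.39, SE 0.11, edgeR adjusted p = 0.0492).

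The call for Vcam1 was the least secure of the 4. It was lost in 11 of 15 alternative settings, among them each fit without 1 library (adjusted p from 0.0594 to 0.196 in edgeR), while the log2 fold change stayed between 0.35 and 0.44. With the replicate number as a block the edgeR adjusted p was 0.0746. Endothelial markers summed to 511 to 646 CPM in NOD.B10 and 471 to 582 CPM in BL/10. Of 7 such markers 2 passed the edgeR test upward (Pecam1 and Tek) and 1 downward (Emcn), beside 9.11% and 8.22% of all tested genes. None of the markers was at 0, and their part in the Vcam1 difference was not tested. The receptor chains for VCAM1 gave log2 fold changes of -0.13 (SE 0.11) for Itga4 and 0.38 (SE 0.12) for Itgb1, and neither passed the edgeR test (adjusted p = 0.413 and 0.0651).

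The scavenger of hemoglobin gave the largest increase among the members. Cd163 (ENSMUSG00000008845, chromosome 6 from 124304656 to 124330527, plus strand) encodes the receptor that takes up haptoglobin bound to hemoglobin. It stood at 119.8, 111 and 104 CPM in NOD.B10 and at 19.0, 41.4 and 43.0 CPM in BL/10. The NOD.B10 libraries lay close together and far above the BL/10 libraries, of which BL/10 replicate 1 was the lowest. The mean was 3.24-fold higher in NOD.B10, 111 ± 8.04 CPM against 34.4 ± 13.4 CPM (SD, n = 3 each), with a log2 fold change of 1.70 (SE 0.28, 95% interval 1.05 to 2.34, edgeR adjusted p = 0.00642). All 15 alternative settings kept the call. BL/10 replicate 1 set much of the size, since the log2 fold change was 1.39 without it and 2.55 when it was the sole BL/10 library, in the 26-week fit. Haptoglobin itself (Hp) had 65.8, 53.6 and 38.9 CPM in NOD.B10 and 56.9, 123 and 103 CPM in BL/10, with a log2 fold change of -0.84 (SE 0.29, edgeR adjusted p = 0.0871).

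Heme breakdown was represented by Hmox1 (ENSMUSG00000005413, chromosome 8 from 75093591 to 75100596, plus strand), which encodes heme oxygenase 1, the enzyme that opens heme to biliverdin, carbon monoxide and iron. Its level was 1256, 1072 and 689 CPM in NOD.B10 and 956, 913 and 1207 CPM in BL/10. NOD.B10 held both the highest and the lowest library. The means were 1006 ± 289 CPM in NOD.B10 and 1026 ± 159 CPM in BL/10 (SD, n = 3 each), and the log2 fold change was -0.03 (SE 0.23, 95% interval -0.55 to 0.50, edgeR adjusted p = 0.942). Its sign depended on the libraries, ranging from -0.22 to 0.18 when 1 library was left out. Bach1, the heme-sensing repressor of Hmox1 and Spic, and Nfe2l2, which encodes the activator NRF2, had log2 fold changes of -0.02 (SE 0.11) and -0.15 (SE 0.11), with edgeR adjusted p of 0.897 and 0.356.

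The mRNA of the iron exporter was lower in NOD.B10 spleens. Slc40a1 (ENSMUSG00000025993, chromosome 1 from 45908068 to 45926523, minus strand) encodes ferroportin, the sole known iron exporter of mammalian cells. It had 710.0, 626 and 616 CPM in NOD.B10 and 948, 989.6 and 1071 CPM in BL/10. Each NOD.B10 library was lower than each BL/10 library by a wide margin. The mean was 1.54-fold lower in NOD.B10, 651 ± 51.7 CPM against 1003 ± 62.5 CPM (SD, n = 3 each), and the log2 fold change was -0.62 (SE 0.11, 95% interval -0.89 to -0.36, edgeR adjusted p = 0.00985).

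The Slc40a1 call held in 13 of 15 alternative settings. It was lost without NOD.B10 replicate 3 (log2 fold change -0.58, edgeR adjusted p = 0.0510) and in the 26-week fit (log2 fold change -0.54, edgeR adjusted p = 0.0819). The ferritin genes gave lower levels in every NOD.B10 library without passing the edgeR test. Fth1 (ferritin heavy chain) had 1201, 1221 and 1036 CPM in NOD.B10 and 1362, 1636 and 1733 CPM in BL/10 (log2 fold change -0.45, SE 0.14, edgeR adjusted p = 0.0602). Fth1 was called in 4 of 15 alternative settings, among them DESeq2 (adjusted p = 0.00912) and limma-voom (adjusted p = 0.0333). Ftl1 (ferritin light chain) had a log2 fold change of -0.33 (SE 0.15, edgeR adjusted p = 0.166). Both ferritin genes have processed copies in the genome with which reads can be shared, so their levels are uncertain. Hepcidin, the peptide that removes ferroportin from the membrane, is made mainly in the liver, and its gene Hamp had at most 2 counts in any library.

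Cd5l (ENSMUSG00000015854, chromosome 3 from 87357881 to 87371073, plus strand) encodes a protein secreted by tissue macrophages and is a target of the nuclear receptor LXR alpha. It was measured at 136, 115 and 88.4 CPM in NOD.B10 and at 344, 341 and 367 CPM in BL/10. The groups were widely separated, and the highest NOD.B10 library remained far below the lowest BL/10 library. The mean was 3.10-fold lower in NOD.B10, 113 ± 24.0 CPM against 351 ± 14.4 CPM (SD, n = 3 each). The log2 fold change was -1.63 (SE 0.16, 95% interval -2.00 to -1.26, edgeR adjusted p = 0.000666), and it stayed between -1.79 and -1.48 whichever library was left out. All 15 alternative settings kept the call. Nr1h3, which encodes LXR alpha, had a log2 fold change of -0.39 (SE 0.15, edgeR adjusted p = 0.118).

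Among the receptors for dying cells, Mertk and Axl encode TAM kinases that recognise phosphatidylserine through the bridging proteins GAS6 and protein S. Mertk (ENSMUSG00000014361, chromosome 2 from 128698956 to 128802894, plus strand) had 106, 89.6 and 77.3 CPM in NOD.B10 and 81.8, 85.5 and 107 CPM in BL/10. The strains covered nearly the same range, and the log2 fold change was -0.0038 (SE 0.15, 95% interval -0.35 to 0.34, edgeR adjusted p = 0.990). Axl (ENSMUSG00000002602, chromosome 7 from 25757273 to 25788705, minus strand) had 381, 309 and 365 CPM in NOD.B10 and 372, 422 and 517 CPM in BL/10. The highest NOD.B10 library exceeded the lowest BL/10 library, and the log2 fold change was -0.31 (SE 0.15, 95% interval -0.66 to 0.03, edgeR adjusted p = 0.180). The remaining TAM kinase gene, Tyro3, was higher in NOD.B10, with 5.32, 4.79 and 5.23 CPM against 2.66, 1.88 and 1.88 CPM (log2 fold change 1.25, SE 0.20, edgeR adjusted p = 0.00583). The ligand genes Gas6 and Pros1 had log2 fold changes of -0.10 (SE 0.17) and 0.03 (SE 0.09), with edgeR adjusted p of 0.707 and 0.858.

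**Figure D2:**
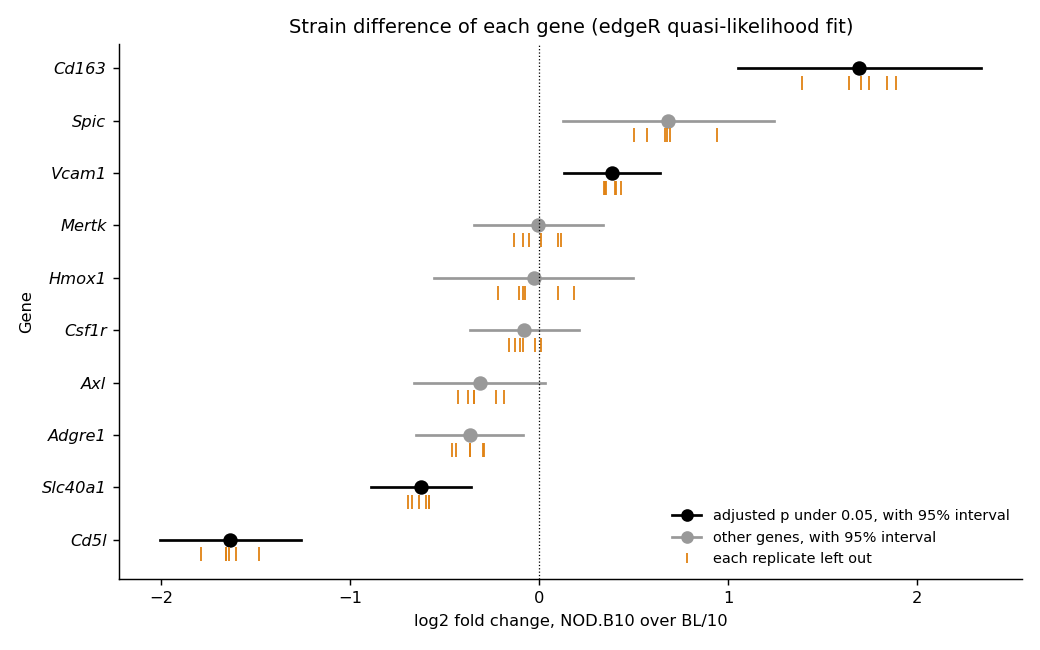
Log2 fold change of NOD.B10 over BL/10 for each of the 10 genes (horizontal axis) with its 95% interval, in black where the edgeR adjusted p was under 0.05 and in grey otherwise. The orange ticks give the fold change with each library left out in turn. The intervals of Cd163 (1.05 to 2.34) and Cd5l (-2.00 to -1.26) lie farthest from 0, and the ticks of Mertk, Hmox1 and Csf1r fall on both sides of it.

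Levels of different genes were compared after division by exonic length, as mean CPM per kilobase. In NOD.B10 the order was Hmox1 at 465, Vcam1 at 125, Csf1r at 104, Slc40a1 at 72.3, Axl at 69.8, Spic at 62.3, Cd5l at 55.6, Adgre1 at 42.6, Mertk at 21.0 and Cd163 at 20.4 CPM per kilobase. In BL/10 it was Hmox1 at 475, Cd5l at 172, Slc40a1 at 111, Csf1r at 110, Vcam1 at 96.0, Axl at 86.8, Adgre1 at 54.9, Spic at 38.8, Mertk at 21.1 and Cd163 at 6.30 CPM per kilobase. Hmox1 was the most abundant in both strains, above every other member in every library. Cd5l ranked second in BL/10, with no library of another member between it and Hmox1. The values of Slc40a1, Csf1r, Vcam1 and Axl overlapped in BL/10 from each gene to the next, as did those of Slc40a1, Axl, Spic, Cd5l and Adgre1 in NOD.B10. Mertk and Cd163 overlapped in NOD.B10 and were separate in BL/10.

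The members also shared a library order within each strain. NOD.B10 replicate 1 was the highest NOD.B10 library for 9 of 10 members, which held for 30.8% of all tested genes, and NOD.B10 replicate 3 was the lowest for 7, against 33.9% of all tested genes. BL/10 replicate 3 was the highest BL/10 library for 9 members, against 29.9% of all tested genes. The summed level of the 10 genes was 4861, 4275 and 3827 CPM in NOD.B10 and 4330, 4460 and 5179 CPM in BL/10, so the strains overlapped. In these bulk samples, fewer red pulp macrophages and less RNA per macrophage cannot be told apart.

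The levels were also set against Csf1r in the same library, a ratio chosen after the values were seen. Whole spleens also hold other macrophages, such as those of the marginal zone, so the ratio is not a level per red pulp macrophage. Cd163 per Csf1r was 0.220, 0.237 and 0.203 in NOD.B10 and 0.0395, 0.0792 and 0.0712 in BL/10. Cd5l per Csf1r was 0.251, 0.246 and 0.173 in NOD.B10 and 0.717, 0.652 and 0.608 in BL/10. Slc40a1 per Csf1r was 1.31, 1.34 and 1.20 in NOD.B10 and 1.97, 1.89 and 1.77 in BL/10. NOD.B10 and BL/10 libraries were separate for these 3 ratios, and also for those of Vcam1, Adgre1 and Axl, while the ratios of Spic, Hmox1 and Mertk overlapped. How often such a ratio is separate over all tested genes was not computed. For levels without division, the strains did not overlap for 38.0% of tested genes, and those of Axl did overlap. For such a ratio the smallest p that exact permutation of 3 against 3 libraries allows is 0.1, so no call could be made. The exons that Csf1r shares with Hmgxb3 bear on the ratios too.

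The pattern of Spic over the 6 libraries was compared with that of every other tested gene, by the root mean square difference of log2 CPM after each gene was centred on its mean. The 5 most alike were Ms4a4a (0.0959), Tfec (0.118), Timp1 (0.126), Cxcr2 (0.162) and Col13a1 (0.167), where the median over all tested genes was 0.493. Tfec, which encodes a transcription factor of the MiT family, had 36.8, 34.8 and 20.9 CPM in NOD.B10 and 19.7, 22.9 and 21.3 CPM in BL/10. Like Spic, it was high in NOD.B10 replicates 1 and 2 and not in replicate 3. The nearest members were Vcam1 (0.329) and Hmox1 (0.374), and Cd5l was the farthest (1.15). Between members the closest pair was Adgre1 and Axl (0.0834) and the most distant pair was Cd163 and Cd5l (1.76).

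Other genes of iron and heme handling were examined next. Of 32 genes, 30 were tested, and the list had 2 genes higher and 3 lower in NOD.B10 in the edgeR fit, with 25 that did not pass, beside 17.3% of all tested genes called. The median log2 fold change was -0.18, and 22 of the 30 were fitted lower. Cp (ceruloplasmin, a ferroxidase that works with ferroportin) rose, with 109, 105 and 108 CPM in NOD.B10 and 76.9, 63.0 and 70.2 CPM in BL/10 (log2 fold change 0.61, SE 0.09, edgeR adjusted p = 0.00467). Every NOD.B10 library of Cp was above every BL/10 library. Slc39a14 (the metal importer ZIP14) rose with a log2 fold change of 0.64 (SE 0.12, edgeR adjusted p = 0.0121).

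The 3 genes that fell were Slc39a8, Blvra and Pcbp2. Slc39a8 (the metal importer ZIP8) had 22.7, 27.9 and 23.0 CPM in NOD.B10 and 30.1, 49.6 and 44.6 CPM in BL/10 (log2 fold change -0.75, SE 0.19, edgeR adjusted p = 0.0317). Blvra, which encodes the biliverdin reductase acting after heme oxygenase, had a log2 fold change of -0.39 (SE 0.09, edgeR adjusted p = 0.0266). Pcbp2, an iron chaperone, had a log2 fold change of -0.31 (SE 0.09, edgeR adjusted p = 0.0444), but 54.78% of its exonic bases are shared with Map3k12 on the opposite strand. The call of Pcbp2 held in 6 of 15 alternative settings and, with 1 library left out, only without BL/10 replicate 1. Those of Slc39a8 and Blvra held in 10 of 15, and both were lost without NOD.B10 replicate 1, NOD.B10 replicate 3 or BL/10 replicate 2, while Cp and Slc39a14 were lost in the 26-week fit alone. Slc48a1, which encodes the transporter HRG1 that moves heme out of the phagolysosome, had 215, 218 and 163 CPM in NOD.B10 and 225, 319 and 367 CPM in BL/10, and did not pass (log2 fold change -0.61, SE 0.20, edgeR adjusted p = 0.0711).

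Red blood cell precursors also use many of these genes, and their markers varied between libraries. The sum of 10 erythroid markers was 6686, 9603 and 5101 CPM in NOD.B10 and 6208, 13945 and 13246 CPM in BL/10. All 10 were fitted lower in NOD.B10, 0 passed the edgeR test and none was at 0, while 3 had an unadjusted p under 0.05. BL/10 replicate 1, the 26-week control and also the library with the most pancreas enzyme counts, lay within the NOD.B10 range. The iron and heme list summed to 6123, 7085 and 5329 CPM in NOD.B10 and 6000, 8880 and 8621 CPM in BL/10, in which BL/10 replicate 1 again lay among the NOD.B10 libraries. The part of erythroid cells in the iron gene differences was not tested. The call counts of this list depended on the libraries, with 2 genes called without NOD.B10 replicate 1 and 11 without BL/10 replicate 1. The shares of all genes called in these fits were 8.12% and 26.3%.

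Of 24 further genes of the macrophage program, all tested, 1 was higher, 2 were lower and 21 did not pass, beside 17.3% of all tested genes called, with a median log2 fold change of 0.19. The summed level of the list was 8789, 8055 and 7899 CPM in NOD.B10 and 7163, 7251 and 6902 CPM in BL/10, so that, unlike the sum of the members, it was higher in every NOD.B10 library. A sum is set mainly by its most abundant genes, and of the 24 genes 14 were fitted higher and 10 lower. Itgad, which encodes the integrin alpha D chain found on red pulp macrophages, rose from 107, 119 and 139 CPM in BL/10 to 224, 182 and 196 CPM in NOD.B10 (log2 fold change 0.72, SE 0.13, edgeR adjusted p = 0.00938). The strains did not overlap for Itgad, and all 15 alternative settings kept the call. Of its exonic bases, 8.603% are shared with 4931431B13Rik on the opposite strand and 7.317% with Gm17831 on the same strand. Treml4, a receptor of the same macrophages, was measured at 92.5, 76.5 and 89.2 CPM in NOD.B10 and 99.0, 103 and 108 CPM in BL/10 (log2 fold change -0.26, SE 0.10, edgeR adjusted p = 0.101).

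The genes that fell, Fcgr1 (log2 fold change -1.16, SE 0.24, edgeR adjusted p = 0.0151) and Itgam (log2 fold change -0.95, SE 0.21, edgeR adjusted p = 0.0199), encode the high-affinity Fc receptor and CD11b, which monocytes and neutrophils also carry. The level of Itgam is uncertain, because 68.67% of its exonic bases are shared with Gm49368, and its call held in 9 of 15 alternative settings and, with 1 library left out, only without BL/10 replicate 1. The call of Fcgr1 held in 12 of 15 and was lost without BL/10 replicate 2 or 3 and in the 26-week fit. Neutrophil markers summed to 2157 to 2497 CPM in NOD.B10 and 6122 to 12789 CPM in BL/10, with 9 of 10 lower in NOD.B10 by the edgeR test and Cxcr2 the exception. Monocyte markers summed to 360.1 to 400.3 CPM in NOD.B10 and 625 to 1203 CPM in BL/10, with 2 of 7 lower, Ly6c2 and Chil3. Of all tested genes, 8.22% were called lower. No marker of either list was at 0, and their part in the differences of Fcgr1 and Itgam was not tested.

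Of 20 further genes for the uptake of dying cells, all tested, 4 were higher, 1 was lower and 15 did not pass, beside 17.3% of all tested genes called, with a median log2 fold change of -0.02. Beside Tyro3, the genes that rose were Elmo1, an engulfment adaptor (log2 fold change 0.90, SE 0.17, edgeR adjusted p = 0.0116), Stab1, the scavenger receptor stabilin 1 (0.65, SE 0.17, adjusted p = 0.0355), and Itgav, the integrin alpha V chain (0.54, SE 0.11, adjusted p = 0.0181). Anxa1, which neutrophils and monocytes also express, fell from 235, 388 and 287 CPM in BL/10 to 186, 166 and 170 CPM in NOD.B10 (log2 fold change -0.80, SE 0.18, edgeR adjusted p = 0.0213). The calls of Stab1, Itgav and Anxa1 held in 11, 10 and 11 of 15 alternative settings, and all 3 were lost without NOD.B10 replicate 1 or 3. Those of Tyro3 and Elmo1 were lost in the 26-week fit alone. The strains did not overlap for Anxa1, as for 38.0% of all tested genes. The part of neutrophils and monocytes in its difference was not tested.

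**Figure D3:**
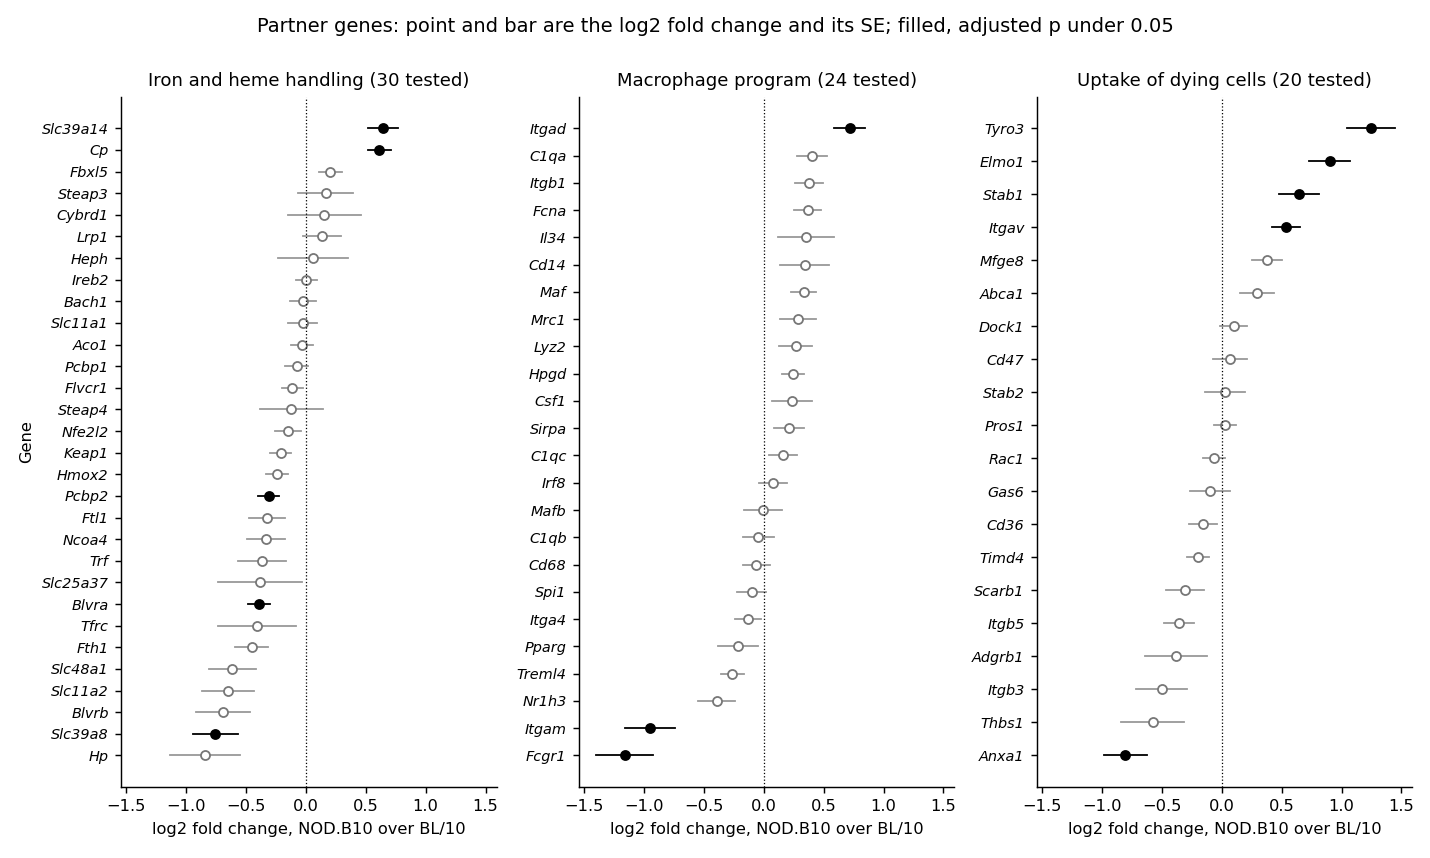
Log2 fold change of NOD.B10 over BL/10 (horizontal axis) with its SE for the 30 tested genes of iron and heme handling, 24 genes of the macrophage program and 20 genes for the uptake of dying cells, filled where the edgeR adjusted p was under 0.05. Filled points number 5, 3 and 5, and most iron and heme genes (22 of 30) lie to the left of 0.

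Markers of other splenic cell types were set beside the members. Of all tested genes, 9.11% were called higher and 8.22% lower in the same edgeR fit. Marginal zone macrophage markers summed to 372 to 472 CPM in NOD.B10 and 396 to 454 CPM in BL/10, with 2 of 6 higher (Siglec1 and Cd209d) and 1 lower (Cd209b) by the edgeR test. T cell markers summed to 637 to 832 CPM in NOD.B10 and 336 to 426 CPM in BL/10, with 6 of 8 higher. Plasma cell markers were also separate between the strains, at 3225 to 3719 CPM in NOD.B10 and 2036 to 2587 CPM in BL/10, with 5 of 6 higher. The sums of B cell, dendritic cell, stromal and megakaryocyte markers overlapped between the strains, with 0 of 6, 0 of 7, 3 of 8 and 1 of 6 tested markers called. The stromal list had 9 markers, of which 8 were tested, with 2 called higher and 1 lower. In these lists only the stromal marker Ccl21a was at 0 in most libraries, and at 1 count in BL/10 replicate 3. Where the sums were separate, the part of the cell type in the member differences was not tested.

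Pancreas acinar markers were lower in NOD.B10 for all 9 tested of 10, with summed levels of 11605, 1786 and 105 CPM in BL/10 replicates 1, 2 and 3 and of 21.9 to 30.7 CPM in NOD.B10. Try4 and Clps were at 0 in some NOD.B10 libraries. BL/10 replicate 1 therefore stood apart from the other libraries. With these 10 pancreas markers and the hemoglobin and immunoglobulin genes taken out before normalisation, 4 members were called, beside 17.8% of all genes tested there. Pancreas genes outside the 10 stayed in, so this fit does not show what all pancreas RNA contributed. Without BL/10 replicate 1 the count was also 4, but beside 26.3% of all genes.

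**Figure D4:**
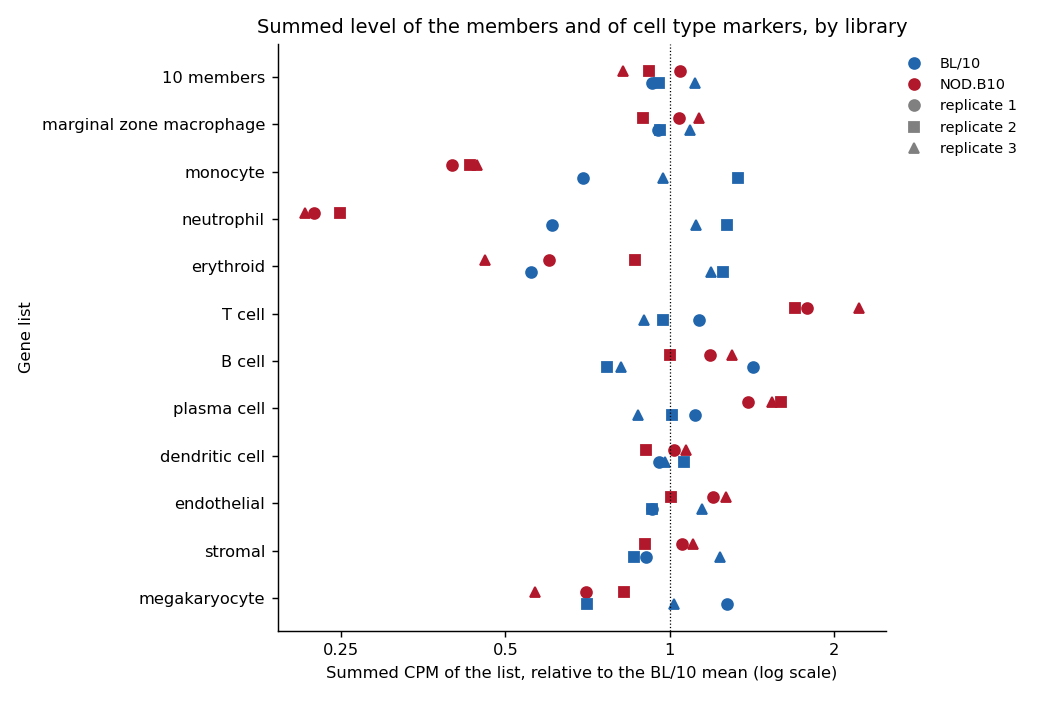
Summed CPM of the 10 members and of the marker lists of other splenic cell types in each library, divided by the BL/10 mean of the same list (horizontal axis, log scale). The members, at 3827 to 4861 CPM in NOD.B10 and 4330 to 5179 CPM in BL/10, lie around 1 in both strains, whereas neutrophil and monocyte markers lie lower and T cell and plasma cell markers higher in all NOD.B10 libraries.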

How the data were processed

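RNA of 6 female spleens had been sequenced as 50-base single-end reads (TruSeq). The authors deposited raw read counts per gene, made with featureCounts 1.5.1 on Ensembl 84 exons (GRCm38) without normalization. For alignment, the methods name Tophat2 and the submitters' processing notes HISAT2 2.0.5. How reads of NOD alleles align to the reference was not tested. Symbols came from GENCODE M21 (47224 of 47729 identifiers). Strains were taken from the library descriptions and column names.

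Genes were filtered (filterByExpr), scaled by TMM and tested in edgeR 4.0.16 (R 4.3.3) by the quasi-likelihood test, NOD.B10 against BL/10 without covariates, with Benjamini-Hochberg adjustment over 15330 genes and a threshold of 0.05. DESeq2 1.42.0, limma-voom (limma 3.58.1) and 13 further settings were alternatives, and the edgeR fit was checked on simulated counts. Log2 CPM used a prior count of 2. Exonic overlaps were read from the exon coordinates deposited with the counts, promoters from RefSeq and iron-responsive elements from GENCODE. The members and lists were chosen with earlier results of these data known. Named were all members, their direct partners, and up to 8 called genes a list with the largest fold changes.

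Counts of replicates within a strain differed by more than sampling noise, the lowest ratio of chi-square to its degrees of freedom being 12.5. Deviations of same-numbered libraries from their strain means correlated at 0.0316, 0.172 and -0.0837, and those of other pairs at -0.184 to 0.158. With 3 libraries a strain, these values cannot show whether the numbers pair the mice.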

Additional observations from a re-analysis of the deposited data

How the results depend on the processing

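Cd163 and Cd5l kept their direction and their call in all 15 alternatives. The members' median log2 fold change was -0.053 in the main fit. It ranged from -0.17 without NOD.B10 replicate 1 to 0.076 in the 26-week fit. The median was also positive without NOD.B10 replicate 3 (0.0099) and without BL/10 replicate 3 (0.055). These moves were smaller than the SD between replicates of the members' median log2 CPM (0.209), which is a spread of levels and not of fold changes. The number of members called was 3 to 4 with 1 library left out, 3 with the replicate block, 6 by DESeq2 and 2 in the 26-week fit, which leaves 1 BL/10 library. Over all tested genes 2656 were called in the main fit, 2889 with the replicate block, 1001 in the 26-week fit, and from 1269 (without NOD.B10 replicate 1) to 4107 (without BL/10 replicate 1) with 1 library left out. The same counts were 1395 without NOD.B10 replicate 3, 1580 without BL/10 replicate 2 and 1744 without BL/10 replicate 3. Of the members, list genes and markers named in the text, the replicate block took the call from Vcam1, Pcbp2, Siglec1 and Tek (adjusted p = 0.0746, 0.0522, 0.0575 and 0.0523 in edgeR) and changed no other. Whether the numbers pair the mice is not known.

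The iron and heme list, with 5 genes called, had 10 by DESeq2, 9 by limma-voom, 9 with a minimum of 1 count in total, 0 in the 26-week fit and 2 to 11 with 1 library left out. The macrophage program list, with 3, had 6 by DESeq2, 7 by limma-voom, 1 in the 26-week fit and 1 to 4 with 1 library left out. The list for uptake of dying cells, with 5, had 2 in the 26-week fit and 2 to 7 with 1 library left out. Among named genes that passed no test, the log2 fold change turned positive for Mertk with upper-quartile scaling (0.022), limma-voom (0.035) and the 26-week fit (0.15), for Bach1 with upper-quartile scaling (0.0042) and the 26-week fit (0.16), and for Hmox1 with limma-voom (0.033) and the 26-week fit (0.072). In the 26-week fit it also turned positive for Csf1r (0.079) and Gas6 (0.031). With 1 library left out it ranged from -0.13 to 0.12 for Mertk, -0.22 to 0.18 for Hmox1, -0.16 to 0.011 for Csf1r, -0.12 to 0.043 for Bach1, -0.22 to 0.083 for Gas6 and -0.031 to 0.082 for Pros1. Apart from the fits with fewer libraries or another set of genes, the cause of these moves was not tested. With 3 mice a strain, the precision is limited by the spread between mice more than by depth, and all members had at least 349 counts in each library.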
